A study of Mus musculus with 6 samples.

Results

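The SOCS family consists of the feedback inhibitors of cytokine signalling, and its 8 genes in the mouse, Cish and Socs1 to Socs7, were followed in bone marrow cells shortly after introduction of MN1. The members were chosen by name, and a gene with several probe sets is represented by its brightest one, judged over all 6 arrays. All 8 were measured, among 19938 genes that carry a single name on the array. None of the 8 passed the test of MN1 against empty vector cells after adjustment over all genes. Cish, Socs1, Socs2 and Socs3 averaged lower with MN1, by 0.13 to 0.50 on the log2 scale. Socs4, Socs5, Socs6 and Socs7 averaged higher, by 0.04 to 0.34, and the direction of Socs7 turned under quantile normalization.

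A cytokine receptor of this class carries a Janus kinase (JAK), which on binding of the ligand phosphorylates the receptor and then the STAT transcription factors. STATs enter the nucleus and switch on, among other genes, those of Cish and Socs1 to Socs3, whose proteins bind the activated receptor or its kinase and damp the signal, so that their mRNA is commonly read as a mark of recent cytokine signalling. Every family member has an SH2 domain, which recognises phosphotyrosine, and a SOCS box, which recruits elongins and the cullin Cul5 to tag bound proteins for degradation. In blood formation Socs1 is known for restraint of interferon gamma, Socs3 for restraint of the receptors for G-CSF and interleukin-6, and Cish and Socs2 as STAT5 targets.

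The MN1 cells were mouse marrow cells transduced with a murine stem cell virus vector that carries MN1, a transcriptional coregulator overexpressed in some myeloid leukaemias, and the controls received the empty vector. Both groups were sorted for the fluorescent reporter 72 hours after transduction, so that they share infection, reporter and sort, and the series describes 3 independent experiments. The labels call the reporter GFP, while the series text has YFP. Not stated in the sources used here are strain, age and sex of the donors, culture conditions and the species of the MN1 insert. Each group held 3 one-colour arrays. The values are log2 expression values, and their medians ran from 5.82 to 6.01 over the 6 arrays. The number of arrays limits the precision. The probe set of mouse Mn1 measured 6.47, 6.62 and 6.08 in MN1 arrays, against 5.34, 5.41 and 4.80 in empty vector arrays. The groups did not overlap for Mn1, although its adjusted p was 0.584 (limma). With the species of the insert not stated, how far this probe set reads the insert is unknown.

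In a mixed marrow sample, fewer cells of a type and less RNA per cell cannot be told apart. Of 11 lists of cell type markers, the mean level over the list separated the groups in 4 on the deposited scale. Among all single genes, groups did not overlap for 16%, while 43.3% were higher with MN1 and 56.7% lower. How often means over lists of genes separate the groups was not computed. Stem and progenitor markers (8 of 10 measured genes higher) averaged 8.83 to 9.51 in MN1 arrays and 8.07 to 8.62 in empty vector arrays. Monocyte and macrophage markers (7 of 10 higher) averaged 10.47 to 11.22 in MN1 arrays and 9.98 to 10.34 in empty vector arrays. Erythroid markers (8 of 9 lower) averaged 6.55 to 7.16 with MN1 and 7.19 to 7.54 with the empty vector. Those of T and NK cells (8 of 11 lower) averaged 5.80 to 6.16 with MN1 and 6.26 to 6.56 with the empty vector. Less each array's median, the groups overlapped for the erythroid list and for the T and NK list. The stem and progenitor list and the monocyte and macrophage list stayed apart. Late granulocyte markers (9 of 10 lower) overlapped, at 8.93 to 9.39 in MN1 arrays and 8.39 to 11.71 in empty vector arrays. Primary granule markers (5 of 5 lower) overlapped at 8.83 to 11.31 with MN1 and 9.25 to 12.43 with the empty vector. Megakaryocyte markers (7 of 7 higher) overlapped at 9.64 to 11.51 with MN1 and 8.81 to 10.22 with the empty vector. The part of these shifts in the values of the SOCS genes was not tested.

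The promoters of Cish, Socs1 and Socs3 are shown because the control of these genes by STAT factors and, for Socs1, interferon regulatory factors is what makes their mRNA a readout of signalling. They are from RefSeq (GRCm38.p6), read 5′ to 3′ on the strand of the gene, with 250 bases before and 50 after the annotated start. The table held promoters for 4 of the 8 genes, Socs4 being the other one. Capitals mark matches to TTCNNNGAA, the palindromic STAT motif, or to GAAANNGAA, a motif of interferon regulatory factors, both searched on either strand.
Cish promoter, chr9:107296409-107296708, plus strand: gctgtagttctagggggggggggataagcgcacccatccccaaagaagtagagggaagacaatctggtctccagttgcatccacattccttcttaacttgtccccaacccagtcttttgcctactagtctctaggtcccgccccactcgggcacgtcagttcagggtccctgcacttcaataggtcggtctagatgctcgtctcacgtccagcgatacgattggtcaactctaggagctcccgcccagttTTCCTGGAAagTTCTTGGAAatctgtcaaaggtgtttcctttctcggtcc
Socs1 promoter, chr16:10785487-10785786, minus strand: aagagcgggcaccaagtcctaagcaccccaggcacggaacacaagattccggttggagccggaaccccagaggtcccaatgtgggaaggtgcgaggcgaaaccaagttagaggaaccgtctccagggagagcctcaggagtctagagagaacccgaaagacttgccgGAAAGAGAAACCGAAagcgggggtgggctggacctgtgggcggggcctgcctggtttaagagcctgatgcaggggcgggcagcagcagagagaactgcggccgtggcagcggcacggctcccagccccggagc
Socs3 promoter, chr11:117969317-117969616, minus strand: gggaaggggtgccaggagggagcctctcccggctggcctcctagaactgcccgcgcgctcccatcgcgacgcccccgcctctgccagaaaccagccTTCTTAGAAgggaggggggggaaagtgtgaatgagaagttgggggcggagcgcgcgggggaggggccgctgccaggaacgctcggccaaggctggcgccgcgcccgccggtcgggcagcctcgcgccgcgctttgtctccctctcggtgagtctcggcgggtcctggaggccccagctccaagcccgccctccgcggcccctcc

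The Cish promoter held 2 STAT motifs, TTCCTGGAA at bases 1 to 9 and TTCTTGGAA at bases 12 to 20 counted from the annotated start. The Socs3 promoter held 1, TTCTTAGAA, from base -154 to -146. The Socs1 promoter held no STAT motif in this window, but 2 overlapping matches to the interferon motif, GAAAGAGAA and GAAACCGAA, between bases -83 and -69. The Socs4 promoter held neither. Of 32851 annotated mouse promoters of the same length, with several starts for some genes, 8.3% held TTCNNNGAA and 8.56% held GAAANNGAA. These matches are letters in a sequence, and no binding was measured.

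Cish encodes the founding member of the family, which docks to the receptors for erythropoietin, interleukin-2 and growth hormone. Cish measured 11.05, 10.58 and 11.10 in MN1 arrays, against 11.46, 11.00 and 11.30 in empty vector arrays. Both higher MN1 arrays lay just above the lowest empty vector array, so the groups overlapped. The log2 difference of Cish was -0.34 ± 0.19 (SE), or 1.27-fold lower with MN1, with a 95% interval from -0.79 to 0.11. The adjusted p was 0.606 (limma, Benjamini-Hochberg over all genes), and an exact two-sided permutation test over the arrays gave 0.3, where 0.1 is the smallest p that 3 arrays against 3 allow.

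Socs1, which blocks JAK kinases directly through a short inhibitory region and is indispensable for limiting interferon gamma in mice, had the largest mean difference of the 8 kept probe sets. It measured 9.17, 9.43 and 9.82 in MN1 arrays, against 10.34, 9.70 and 9.89 in empty vector arrays. Replicate 3 of MN1 lay between the lower empty vector values, and the other MN1 arrays lay below all of them. The log2 difference of Socs1 was -0.50 ± 0.23 (SE), or 1.42-fold lower, and its 95% interval, -1.04 to 0.04, reached just past 0. Its adjusted p was 0.584 (limma), and the exact permutation p was 0.2. Over 15 alternative settings, which give 10 distinct values other than the one reported, the difference of Socs1 stayed negative, at -0.67 to -0.32, and so did that of Cish, at -0.55 to -0.17.

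Socs2 encodes the member that limits growth hormone signalling, so that mice without it grow large. The values of Socs2 were 9.54, 9.33 and 9.30 in MN1 arrays, against 10.14, 9.39 and 9.02 in empty vector arrays. The empty vector arrays held both the highest and the lowest value, and the MN1 arrays lay close together between them. The SD was 0.13 in MN1 arrays and 0.57 in empty vector arrays (n = 3 each). The mean log2 difference of -0.13 ± 0.28 (SE) rested on empty vector replicate 1, without which it was 0.18. The adjusted p was 0.883 (limma). The annotation gives no genome position for this probe set, so whether it lies at the Socs2 gene or at a second, similar locus is unknown. A dimmer probe set of Socs2 that lists the same main transcript records measured 7.69, 7.28 and 7.37 in MN1 arrays, against 7.81, 7.40 and 7.22 in empty vector arrays. It too was highest in empty vector replicate 1 and lowest in empty vector replicate 3, and its difference was -0.03 ± 0.19 (SE), or 0.00057 after median-centring.

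Socs3 encodes the inhibitor that binds gp130, the shared receptor chain of the interleukin-6 group, and the G-CSF receptor. Its kept probe set measured 10.35, 9.35 and 10.61 in MN1 arrays, against 9.88, 10.34 and 10.84 in empty vector arrays. With 1.49 between its extremes, Socs3 had the widest range over the 6 arrays of any member, and both groups spread over most of it. The log2 difference was -0.25 ± 0.38 (SE, adjusted p = 0.832, limma), and without MN1 replicate 2 it was 0.13.

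A second probe set of Socs3, annotated with a single mRNA record, gave a different picture. It measured 8.66, 7.99985 and 8.78 in MN1 arrays, against 9.38, 9.19 and 8.87 in empty vector arrays. All MN1 arrays lay below all empty vector arrays, also after quantile normalization, but the groups overlapped after median-centring of the arrays. The log2 difference was -0.67 ± 0.24 (SE), with an unadjusted p of 0.0313 and an adjusted p of 0.674 (limma, over all 35557 probe sets). Of all probe sets, 7.19% reached such an unadjusted p in either direction and 14.7% had non-overlapping groups. Both sets were lowest in MN1 replicate 2, but the kept set had its lowest empty vector value in replicate 1, where the other set had its highest.

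**Figure D1:**
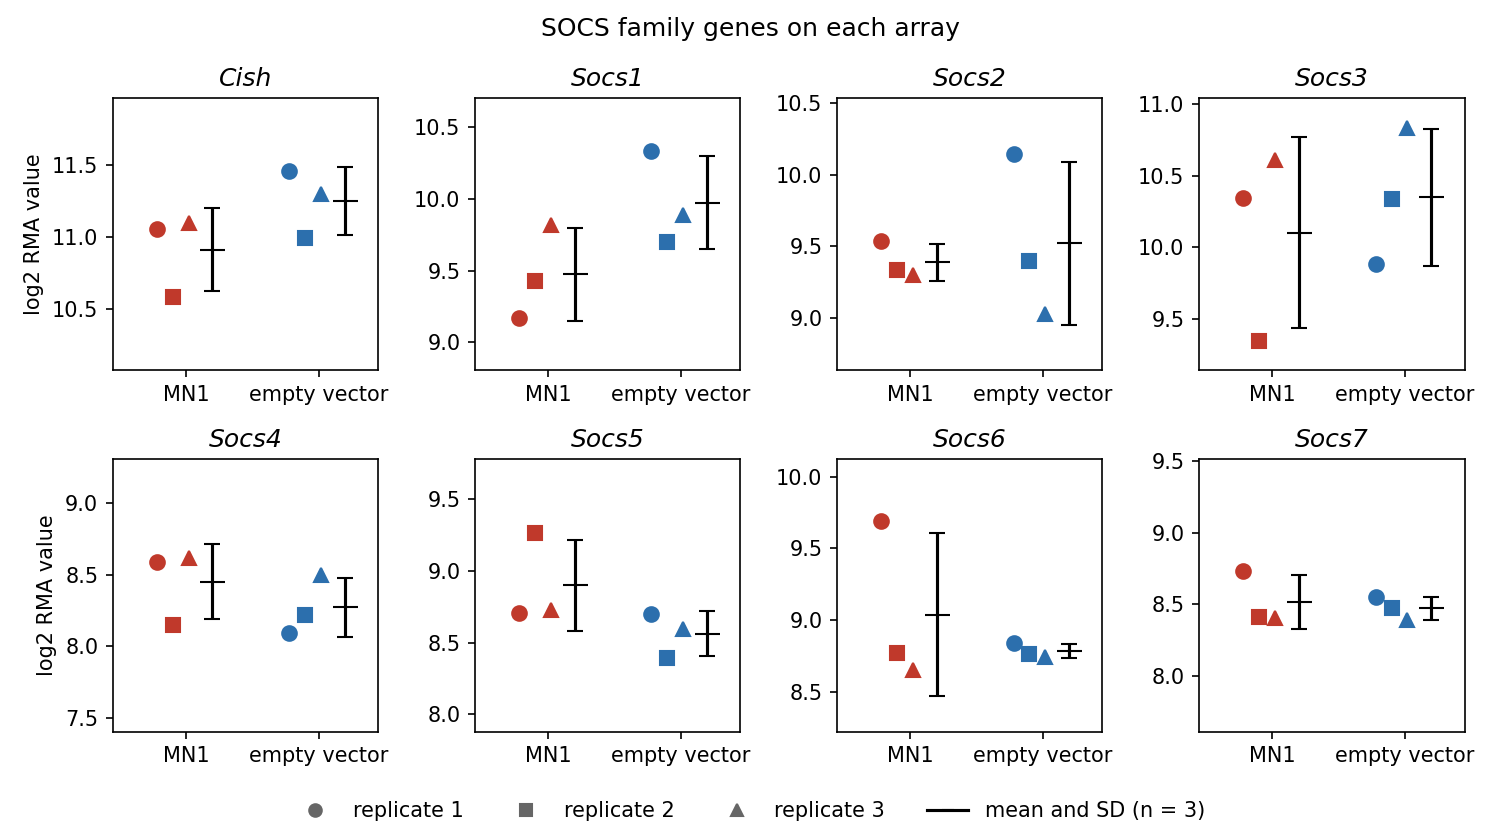
Log2 expression value of each SOCS family gene (kept probe set) on the 3 MN1 arrays and the 3 empty vector arrays. Points are arrays, their shape gives the replicate number, bars give mean and SD, and every panel spans the same log2 range. Socs5 is the only gene whose groups do not overlap, though they do after median-centring, and there the nearest points, 8.71 and 8.70, almost touch.

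The other members belong to the branch with long amino-terminal regions, best known for acting on receptor tyrosine kinases rather than on JAK kinases. Socs5, linked in overexpression studies to restraint of interleukin-4 and epidermal growth factor receptor signalling, measured 8.71, 9.27 and 8.73 in MN1 arrays, against 8.70, 8.39 and 8.60 in empty vector arrays. All MN1 values lay above all empty vector values, MN1 replicate 1 and empty vector replicate 1 being almost level, and the groups overlapped after median-centring and after quantile normalization. The log2 difference was 0.34 ± 0.18 (SE), or 1.26-fold, with a 95% interval from -0.10 to 0.77, an adjusted p of 0.601 (limma) and the smallest exact permutation p possible, 0.1. It was 0.15 without MN1 replicate 2.

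Socs4, the closest relative of Socs5, measured 8.59, 8.15 and 8.62 in MN1 arrays, against 8.10, 8.22 and 8.50 in empty vector arrays. MN1 replicate 2 lay among the lower empty vector values. The log2 difference was 0.18 ± 0.17 (SE, adjusted p = 0.727, limma), and 0.02 with the mean of Y-linked genes as a covariate.

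Socs6, whose protein binds the receptor Kit, measured 9.69, 8.77 and 8.65 in MN1 arrays, against 8.84, 8.76 and 8.74 in empty vector arrays. A single array, MN1 replicate 1, stood apart, and the other 5 lay between 8.65 and 8.84. The log2 difference of 0.25 ± 0.27 (SE, adjusted p = 0.755, limma) was -0.073 without that array. The position of this probe set is likewise not given, and it may lie at a second locus, so which set reads Socs6 itself is unknown. A second probe set with the same listed transcript records measured 9.15, 8.11 and 8.23 in MN1 arrays, against 7.83, 7.99 and 8.14 in empty vector arrays. There too MN1 replicate 1 was highest, and the difference was 0.51 ± 0.29 (SE, adjusted p = 0.682, limma). The remaining set of Socs6, a dim one, lay between 3.31 and 3.69 on all arrays.

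Socs7, an adaptor tied to insulin signalling, was the least variable member, with 0.34 between its extremes. It measured 8.73, 8.41 and 8.40 in MN1 arrays, against 8.55, 8.47 and 8.39 in empty vector arrays. Its log2 difference of 0.04 ± 0.12 (SE, adjusted p = 0.914, limma) had a 95% interval from -0.25 to 0.34, or from 0.838-fold to 1.27-fold. It was -0.065 without MN1 replicate 1 and -0.055 after quantile normalization.

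**Figure D2:**
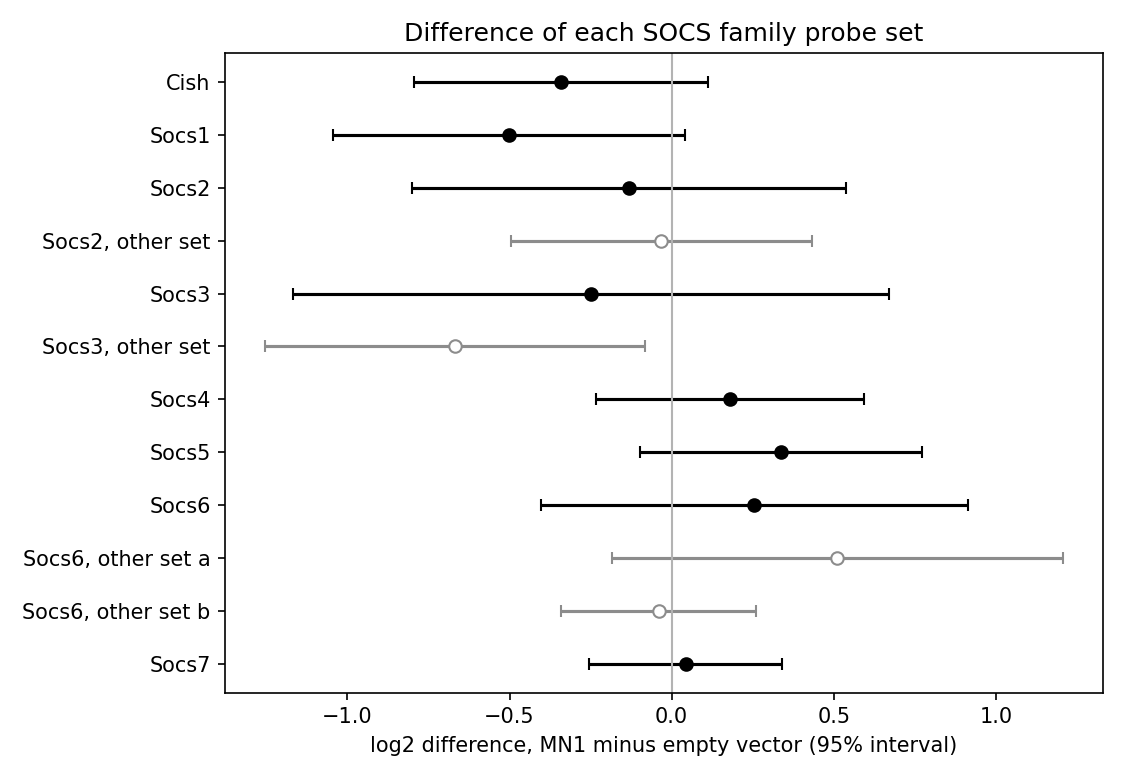
Log2 difference, MN1 minus empty vector, with its 95% interval for each SOCS family gene. Filled points are the kept probe sets, in the fit over genes, and open points the other probe sets of Socs2, Socs3 and Socs6, in the fit over all probe sets. The second set of Socs3, at -0.67, is the only one whose interval leaves out 0.

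Counted over the family, 0 of 8 genes passed an adjusted p under 0.05, as did 0% of the 19938 genes tested (limma). At an unadjusted p under 0.05 the family also had 0 of 8, against 8.4% of all genes. Groups that did not overlap were found for 1 of 8, Socs5, against 16% of all genes, and for 0 of 8 under either other scaling. The shares of all genes there were 6.66% above and 6.17% below after median-centring, and 4.24% above and 8.66% below after quantile normalization. Among 8 genes, neither 0 nor 1 stands out from such shares. The mean was higher with MN1 for 4 of 8 members, against 43.3% of all genes, and lower for 4 of 8, against 56.7% (Socs7 changes sides under quantile normalization). A difference of at least 1 on the log2 scale was seen in 0 of 8 members and in 1.37% of all genes. The median log2 difference was -0.04 over the members and -0.03 over all genes. In absolute size the median was 0.25 for the members and 0.14 for all genes, beside a median SD within groups of 0.29 for the members and 0.17 for all genes.

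The signs split along the structural branches, Cish and Socs1 to Socs3 on one side and Socs4 to Socs7 on the other. The split was looked at after the values were seen, so it is given without a test. Centred on each gene's mean over the 6 arrays, the first 4 genes averaged -0.09, -0.45 and 0.09 in MN1 arrays, against 0.33, -0.01 and 0.14 in empty vector arrays. The other 4 averaged 0.31, 0.03 and -0.03 in MN1 arrays, against -0.08, -0.16 and -0.07 in empty vector arrays. The first branch less the second was -0.40, -0.47 and 0.11 in MN1 arrays, against 0.41, 0.15 and 0.21 in empty vector arrays, so that MN1 replicate 3 came close to the controls. The mean of this contrast differed by -0.51, and by -0.69 to -0.40 when any single array was left out. Since the branches match the signs of the gene differences, a negative mean was fixed beforehand. The range under omission is therefore no test of the split. Under single-array omission Socs2, Socs3, Socs6 and Socs7 each turned sign once, as given above, while Cish, Socs1, Socs4 and Socs5 did not.

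Several members shared the array on which they were highest or lowest. Empty vector replicate 1 had the highest value of Cish, Socs1 and Socs2 and the lowest of Socs4. MN1 replicate 2 had the lowest value of Cish and Socs3 and the highest of Socs5. MN1 replicate 1 had the highest value of Socs6 and Socs7 and the lowest of Socs1.

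**Figure D3:**
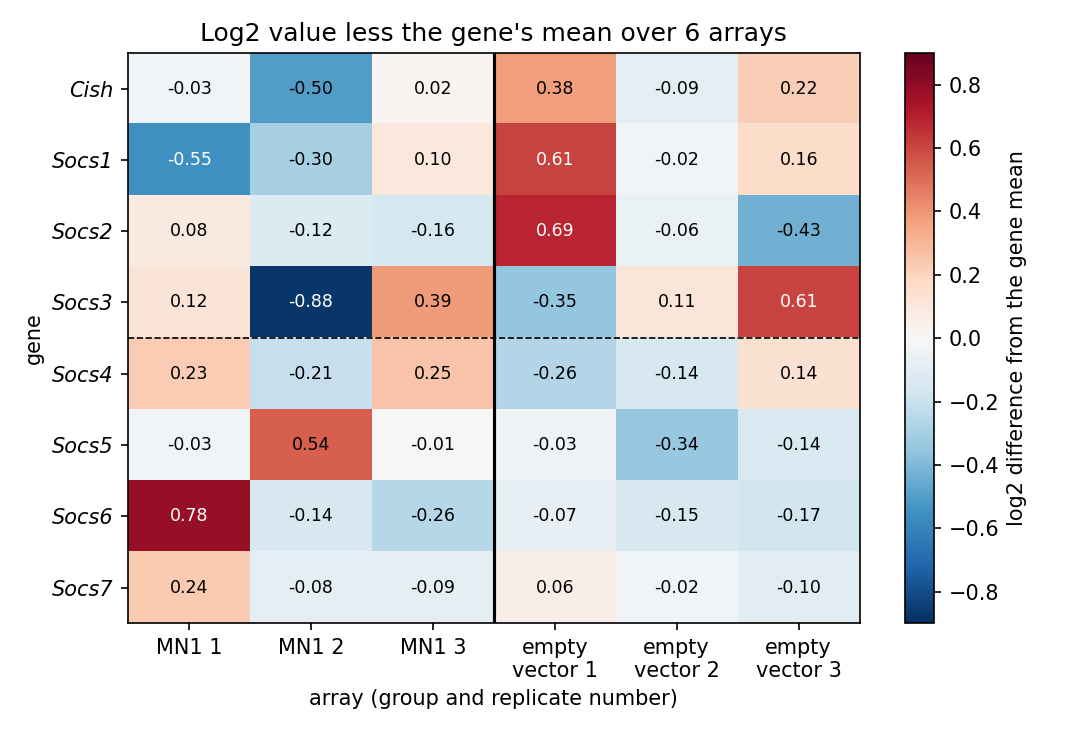
Log2 value of each SOCS family gene less its mean over the 6 arrays, with genes in rows and the 3 MN1 arrays left of the 3 empty vector arrays. The solid line parts the groups and the dashed line the branches. The extremes, -0.88 for Socs3 in MN1 replicate 2 and 0.78 for Socs6 in MN1 replicate 1, both lie in MN1 arrays.

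For the 4 cytokine-induced members, the genes with the most similar profile were sought by the root mean square difference between centred log2 values over the 6 arrays. With 19938 genes and 6 arrays, close profiles are easily met. Those nearest to Cish were Zfp382 (0.091), Trim13 (0.113) and Pde4b (0.119), where the spread of Cish about its own mean was 0.274. Slco4a1 (0.104), Gm10548 (0.143) and Acsbg1 (0.146) came nearest to Socs1, with its own spread of 0.366. Socs2 (0.344) lay closest to Ppp2r3a (0.098), Crtc2 (0.106) and Gna15 (0.118), and Socs3 (0.489) to Mfsd6 (0.097), Ptpn18 (0.098) and Sik1 (0.137). No gene of the cytokine lists below was among these 12. Those lists hold few of the 19938 genes, so this absence was likely beforehand and says nothing about shared signalling.

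Upstream of the family, none of 21 ligand genes passed adjustment. Of these, 14 were lower with MN1 and 7 higher, beside 56.7% of all genes lower, and the median log2 difference was -0.14. At an unadjusted p under 0.05, 5 were lower and 1 higher, against 4.23% of all genes lower and 4.17% higher. The background itself moved with scaling: after median-centring, 977 genes were higher and 400 lower at that p (2.01% of all genes lower), in place of 832 and 843, and the ligand counts were 4 lower and 1 higher. MN1 lay below the empty vector without overlap for 8 of 21, against 10.3% of all genes, and above for 1, against 5.71%. After median-centring these were 3 of 21 below, against 6.17% of all genes, and 2 above, against 6.66%. Il3, Il7, Il11 and Gh, all below on the deposited scale, were dim. Their group means, from 3.93 to 5.87, lay near or below the array medians. They differed by only -0.30 to -0.14 and overlapped after median-centring. Il6, the ligand that induces Socs3 through gp130, measured 8.77, 9.02 and 9.99 in MN1 arrays, against 10.31, 10.14 and 10.56 in empty vector arrays, a log2 difference of -1.08 ± 0.32 (SE, adjusted p = 0.584, limma). Il4, which signals through STAT6, differed by -1.07 ± 0.26 without overlap, and Il13, its close relative, by -1.01 ± 0.58 with overlap. Osm and Lif, both of the interleukin-6 group, differed by -0.96 ± 0.30 and -0.98 ± 0.28, again without overlap, although Lif overlapped after median-centring. Lif, Il15, Il3, Il7, Il11 and Gh lie outside the naming rule and were picked after their values were seen. Il15 was the 1 ligand gene above, at 0.95 ± 0.23.

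Of 30 receptor genes, 17 were higher and 13 lower (median 0.03), or 20 and 10 after median-centring, where Csf2ra, Il4ra and Lepr turned sign, and 0 passed adjustment. At an unadjusted p under 0.05, 5 were higher and 1 lower, against 4.17% of all genes higher and 4.23% lower. Flt3, a receptor tyrosine kinase of progenitors, had the largest difference, 1.83 ± 0.39 (SE, adjusted p = 0.584, limma). Il7r, of lymphoid progenitors, differed by 1.50 ± 0.73 and Il13ra1 by 0.86 ± 0.49, both with overlapping groups.

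Among the kinases, Jak2, which serves the receptors for erythropoietin, thrombopoietin and GM-CSF, measured 10.42, 10.28 and 10.71 in MN1 arrays, against 11.06, 10.84 and 10.91 in empty vector arrays. All MN1 arrays lay below all empty vector arrays, though not after median-centring, and the log2 difference was -0.47 ± 0.14 (SE, adjusted p = 0.584, limma). Jak1, used by interferon and interleukin receptors, differed by -0.01 ± 0.10, with the opposite sign after median-centring, and Tyk2 by 0.12 ± 0.24. Jak3 lies only on probe sets that name several genes.

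Of 6 measured STAT genes, 5 were higher and 1 lower, or 3 and 3 after quantile normalization, where Stat4 and Stat5b turned sign, and none passed adjustment. Stat2, the interferon type I factor, measured 9.97, 9.90 and 9.96 in MN1 arrays, against 9.65, 9.38 and 8.87 in empty vector arrays. Its log2 difference was 0.64 ± 0.20 (SE, adjusted p = 0.584, limma), and the MN1 arrays lay above the empty vector arrays. For the factors that drive Cish and Socs2, Stat5a differed by -0.16 ± 0.16 and Stat5b by 0.06 ± 0.16. Stat3 differed by 0.16 ± 0.18, Stat4 by 0.07 ± 0.43 and Stat6 by 0.21 ± 0.13, all with overlapping groups.

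Genes listed as possible ligase partners of the SOCS box were elongins, cullins, ring subunits and a conjugating enzyme. All 7 measured were higher on average, by small margins (median 0.13), against 43.3% of all genes higher. At an unadjusted p under 0.05 there were 0, against 8.4% of all genes. The groups overlapped for each, where 16% of all genes had groups that did not. Cul2 differed by 0.31 ± 0.17 (SE), Rnf7 by 0.21 ± 0.16 and Elob by 0.16 ± 0.17, and Cul5, the family's main cullin, measured 9.08 ± 0.05 in MN1 arrays and 8.97 ± 0.18 in the controls (SD, n = 3 each). Cul5 too lies outside the naming rule and was picked for its role.

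Of 15 other inhibitors of cytokine signalling, 8 were higher and 7 lower, or 9 and 6 after median-centring, with 1 lower at an unadjusted p under 0.05, against 4.23% of all genes. That was Asb2, which encodes another SOCS box protein, induced by retinoic acid in myeloid leukaemia cells. Asb2 measured 8.25, 9.47 and 8.91 in MN1 arrays, against 10.35, 10.14 and 9.53 in empty vector arrays. No MN1 array reached the lowest empty vector array, and the log2 difference was -1.13 ± 0.35 (SE, adjusted p = 0.584, limma). Usp18, an interferon receptor inhibitor, differed by 0.55 ± 0.47 and the phosphatase gene Ptpn11 by 0.36 ± 0.18, with overlap.

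Lists of other STAT targets varied in direction. STAT5 targets had 9 of 15 higher (median 0.23), STAT3 targets 5 of 14 (median -0.09) and STAT6 targets, a list that includes Cish, 5 of 14 (median -0.31). After median-centring the STAT3 and STAT6 lists each had 6 higher, Il4ra having turned sign, and after quantile normalization the STAT5 list had 8, without Pim2. At an unadjusted p under 0.05 the STAT5 list had 1 higher and 1 lower, the STAT3 list none and the STAT6 list 2 lower, against 4.17% of all genes higher and 4.23% lower. None of these genes passed adjustment. Among STAT5 targets Igf1 differed by 1.60 ± 0.80 (SE), Osm by -0.96 ± 0.30 and Gadd45g by 0.89 ± 0.68. Among STAT3 targets the acute phase genes Hp and Lcn2 differed by -1.07 ± 0.70 and -0.97 ± 0.74, and Il10 by 0.50 ± 0.43, all with overlap. In the STAT6 list the lipoxygenase gene Alox15 differed by -1.76 ± 0.44, and the chemokine genes Ccl22 and Ccl17 by -1.56 ± 0.52 and -1.55 ± 0.88.

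**Figure D4:**
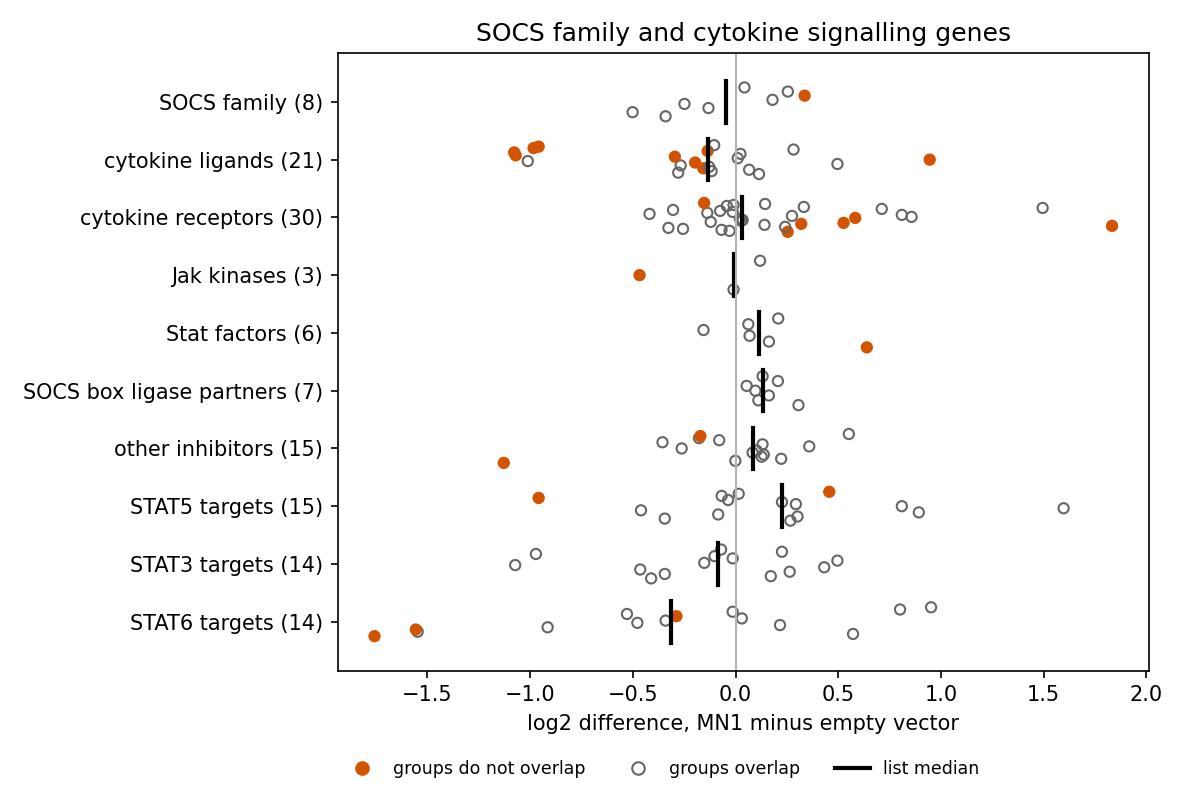
Log2 difference, MN1 minus empty vector, of every measured gene in the SOCS family and in 9 lists of cytokine signalling genes, with the number measured in brackets. Filled points are genes whose groups do not overlap on the deposited scale, open points the rest, and black bars are list medians. The SOCS genes lie between -0.50 and 0.34. Single genes lie beyond 1 on the lower side among ligands and other inhibitors, on the higher side among receptors, and on both sides among targets.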

How the data were processed

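The deposited table holds log2 expression values of 35557 probe sets on 6 arrays, made by the authors with RMA (background correction, normalization and probe summary), per the submitters' processing notes. Its software and version, and which arrays were normalized jointly, are not stated in the sources used here; the scale follows from the values, 2.29 to 14.80. RMA understates fold changes of dim genes. Labelling started from 200 ng of total RNA, per the labels' protocols. All 6 columns were used.

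Of the probe sets, 21789 carry 1 gene symbol in the platform annotation, 1621 several and 12147 none. The brightest set per gene left 19938 genes. All 8 members matched the RefSeq gene table by gene ID, and 3 had several sets. All 8 also passed the filter that drops the dimmest 40% of genes, which was an alternative only. The test was limma 3.58.1 (R 4.3.3; lmFit, eBayes, two-sided, 4 residual and 2.43 prior degrees of freedom) without a block, with p-values adjusted by Benjamini-Hochberg across the 19938 genes and called under 0.05. It was tested on simulated data.

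Members, lists, tests and alternatives were chosen with earlier results of these data known. Genes named are the 8 members, Mn1, the Jak and Stat genes, up to 3 genes of the largest difference per pathway list and the 3 nearest profiles of Cish and Socs1 to Socs3, with exceptions said in the text. Whether equal numbers mark the same experiment is not stated in the sources used here. Correlations of same-numbered arrays' deviations from their group means were 0.130, 0.0747 and 0.324. Those of MN1 and empty vector arrays with different numbers ran from -0.498 to 0.437. These values do not decide it, so no pairing was assumed, and a replicate block was run as an alternative. No genome was used. Results for 1 gene list are not reported here.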

Additional observations from a re-analysis of the deposited data

How the results depend on the processing

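The count of SOCS family members past an adjusted p under 0.05 stayed at 0 in every alternative run, as did that of all genes; the smallest adjusted p of any gene was 0.0989, without MN1 replicate 1. At an unadjusted p under 0.05 the family count of 0 became 1 in several alternatives. This was Cish with the replicate block and with the mean of Y-linked genes as a covariate, and Socs1 after quantile normalization and in the Y-linked block. The range with single arrays left out was 0 to 1, the 1 being Socs1 without MN1 replicate 3 and without empty vector replicate 2. The mean of the Y-linked genes was 7.11, 6.12 and 7.57 in MN1 arrays, against 5.78, 3.78 and 7.04 in empty vector arrays. It thus differed between arrays and averaged higher with MN1, with overlapping groups. The Y-linked split put only empty vector replicate 2 (mean 3.78, against 5.78 to 7.57 on the other arrays) apart, so that block equals leaving it out. The covariate was added after seeing the data. Of all genes, 1675 had an unadjusted p under 0.05, and 906 to 1953 with single arrays left out, the lowest without empty vector replicate 2. The count was 850 without the dimmest 40% of genes, 906 in the Y-linked block, 746 with the Y-linked covariate and 2557 over every probe set. Its split of 832 higher and 843 lower was 977 and 400 after median-centring, 561 and 721 after quantile normalization and 599 and 251 without the dimmest 40%. The count was 1980 with the replicate block, where 3 of 6 arrays correlated best with their own number; the block changed no call.

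Cish, Socs1, Socs4 and Socs5 kept their direction in 15 of 15 alternatives, but 4 of these (the replicate block, the filter, the other prior and the mean of probe sets) leave the difference of a gene with 1 probe set as it is, and the Y-linked block repeats an omitted array, so that 10 could move it. With single arrays left out, Socs2 ran from -0.38 to 0.18, Socs3 from -0.50 to 0.13, Socs6 from -0.073 to 0.45 and Socs7 from -0.065 to 0.10; the median over the members ran from -0.14 to 0.11. Socs7 was -0.055 after quantile normalization, and the dim probe set of Socs6 gave -0.039. The causes were not tested. With 3 arrays per group, the 95% interval of every kept probe set held 0.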
